A study of Mus musculus with 4 samples.

Results

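Hmgcs1, Idi1, Fdps, Fdft1, Sqle, Lss, Cyp51 and Dhcr7 encode 8 enzymes of cholesterol synthesis and were chosen by symbol. Counts were found for 7 of the 8 genes among the 12700 genes of the table, and Idi1, isopentenyl diphosphate isomerase, had no row. Brain RNA was measured from 9-month-old C57BL/6 mice that were either Ids-ko (genotype Ids-/-, symbol H), a model of Hunter syndrome lacking the lysosomal enzyme iduronate sulfatase, or wild type (WT) littermates. Each genotype was sampled in the cerebral cortex (Cx) and in the combined midbrain, diencephalon and hippocampus (M), which gave the 4 conditions CxH, CxWT, MH and MWT. Both areas were dissected from the same brains. Each condition was a single library made from pooled RNA of 7 mice, so no comparison had a replicate check, and differences among mice within a pool were not measured. The comparisons asked how the 7 genes differed between Ids-ko and wt in each area and between the areas in each genotype.

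Cholesterol is built from acetyl-CoA, through mevalonate and the isoprenoid diphosphates, to squalene and lanosterol and from there to cholesterol. The brain makes nearly all of its own cholesterol, because lipoproteins of the blood hardly cross its barrier, and oligodendrocytes use large amounts of it for myelin. When membranes of the endoplasmic reticulum are poor in sterol, Scap carries the transcription factor encoded by Srebf2 to the Golgi, where it is cleaved and released to switch on the genes of this pathway, whereas Insig proteins hold it back.

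The targeted gene and the markers of the areas went against some of the labels, so each library is named here by its label only. Ids was read at 135, 354, 368 and 155 RPM (reads per 1000000 aligned reads) in the libraries labelled CxH, CxWT, MH and MWT respectively. Its log2 ratio was -1.39 ± 0.024 (counting SE) for CxH over CxWT but 1.24 ± 0.025 for MH over MWT, so Ids was higher in the library labelled Ids-ko of the M area. These reads were counted over the whole gene, and reads of its disrupted part were not counted apart. The summed level of 10 cortex markers was 1784, 235, 1651 and 178 RPM in the same order, and that of 13 midbrain and diencephalon markers was 21.7, 454, 34.4 and 399 RPM, with En1 at 0 in MH. By these markers CxH stood with MH, and CxWT stood with MWT. The ratios CxH over CxWT and MH over MWT thus set apart libraries that also differed widely in area markers, while CxH over MH and MWT over CxWT set apart libraries with close area markers and different levels of Ids. Genotype, dissected area and library cannot be told apart in these ratios. Reads on genes numbered 16380080 to 23475080 per library, with a median of 567 to 738 reads per gene.

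A short stretch of promoter is shown because the pathway is known for control through sterol regulatory elements and CCAAT boxes close to the start of its genes. Sequences are from RefSeq on the mouse build GRCm38.p6, 5′ to 3′ on the strand of the gene. Windows from 250 bases before to 50 bases after the start were found for Hmgcs1, Idi1, Lss, Cyp51 and Dhcr7, and none for Fdps, Fdft1 or Sqle. Both strands were searched, and the element searched as TCACNCCAC was in the window of Hmgcs1, 137 bases before its start, and in 1.24% of all 32851 windows. The first stretch below, chr13:119690169-119690267 on the plus strand, has that match in capitals. The second, chr10:76531505-76531604 on the plus strand, holds the 100 bases before the start of Lss with a CCAAT box, read from the other strand as ATTGG, in capitals.
Hmgcs1: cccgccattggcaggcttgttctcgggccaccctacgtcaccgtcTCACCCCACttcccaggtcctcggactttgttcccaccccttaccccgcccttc
Lss: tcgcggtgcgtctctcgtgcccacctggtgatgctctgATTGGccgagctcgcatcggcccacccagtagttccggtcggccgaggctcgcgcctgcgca
None of the other 4 members with a window held TCACNCCAC, and neither did any of 11 other enzymes of the pathway with a window. CCAAT was in 5 of the 7 windows of the members, at least 1 for each of the 5 genes as Dhcr7 had 3 windows, against 37.4% of all windows. GGGCGG, the GC box, was in 6 of the 7, against 35.7% of all windows, and CACGTG, an E-box, was in 1 of the 7, against 7.15%. By gene, 10 of the 11 other enzymes held CCAAT, 10 held GGGCGG and 2 held CACGTG in any window. These are matches of letters and not measured sites.

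Hmgcs1, the synthase that makes HMG-CoA at the entry of the pathway, had the highest read level of the 7 genes in every library. It was read at 145 RPM (exact Poisson 95% interval 141 to 149) in CxH, 145 RPM (141 to 149.6) in CxWT, 163 RPM (159 to 167) in MH and 188 RPM (183 to 193) in MWT. The libraries labelled CxH and CxWT were level, and MWT stood above the other 3 libraries. The log2 ratio was -0.01 ± 0.028 for CxH over CxWT and -0.21 ± 0.027 for MH over MWT. Between libraries labelled Cx and M it was -0.17 ± 0.027 for CxH over MH and 0.37 ± 0.028 for MWT over CxWT. Here and in what follows the error of a ratio and the interval of a level cover counting error only.

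Fdps, farnesyl diphosphate synthase, joins isoprenoid units into the C15 precursor of squalene and of prenyl groups, and it varied most among the 7 genes. It lies on chromosome 3 at 88897514 to 88905881, on the minus strand (mm9, GENCODE vM1). It was read at 42.0 RPM (39.9 to 44.1) in CxH, 35.8 RPM (33.8 to 37.9) in CxWT, 32.0 RPM (30.2 to 33.8) in MH and 55.8 RPM (53.1 to 58.6) in MWT. The highest library, MWT, was 1.75-fold above the lowest, MH, and the only neighbours in the order whose intervals touched were CxWT and MH. The log2 ratio of MH over MWT was -0.80 ± 0.055, with a 95% interval from -0.91 to -0.70, and Fdps was down-regulated in MH by the thresholds of the study, a log2 ratio of 0.7 or more in either direction and a p-value below 0.05 in a Poisson likelihood ratio test. In this pair Ids, too, differed, being higher in the library labelled MH. The test compares the reads of the 2 libraries and not the conditions. The other ratios were 0.23 ± 0.055 for CxH over CxWT, 0.39 ± 0.055 for CxH over MH and 0.64 ± 0.055 for MWT over CxWT. After a correction of the ratios for GC content and transcript length, MH over MWT was -0.61, inside the threshold, and it was also not called under an assumed biological coefficient of variation of 0.2.

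Fdft1, squalene synthase, condenses a pair of farnesyl diphosphates in the first step that commits them to sterols, and its libraries had the same highest and second level as those of Fdps. The gene lies on chromosome 14 at 63763990 to 63796630, minus strand. Its level was 85.8 RPM (82.9 to 88.7) in CxH, 72.3 RPM (69.5 to 75.3) in CxWT, 76.9 RPM (74.1 to 79.8) in MH and 93.6 RPM (90.1 to 97.2) in MWT. The log2 ratio was 0.25 ± 0.039 for CxH over CxWT and -0.28 ± 0.039 for MH over MWT, and 0.16 ± 0.037 for CxH over MH and 0.37 ± 0.040 for MWT over CxWT. All 4 were larger than counting error and below the threshold of size.

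Sqle, squalene epoxidase, catalyses the oxygenation of squalene in the first oxygen-dependent step of the pathway. It lies on chromosome 15 at 59146632 to 59162747, plus strand. Sqle was read at 37.3 RPM (35.4 to 39.3) in CxH, 51.0 RPM (48.7 to 53.5) in CxWT, 44.9 RPM (42.8 to 47.1) in MH and 44.7 RPM (42.3 to 47.2) in MWT. The M libraries overlapped in their intervals, CxWT was highest and CxH lowest. The ratio of CxH over CxWT, -0.45 ± 0.052, was the largest of the 7 genes in that pair, whereas MH over MWT was 0.01 ± 0.053. Between libraries labelled Cx and M, Sqle was lower in the first library of both pairs. It was at -0.27 ± 0.052 for CxH over MH and -0.19 ± 0.053 for MWT over CxWT. Fdps and Fdft1 were higher in the first library of both of these pairs, and Sqle lower, under every scaling and correction tried.

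Lss, lanosterol synthase, closes the rings of the sterol, and it was the least read of the 7 genes. It lies on chromosome 10 at 75994333 to 76019883, plus strand, and its promoter stretch is given above. The level was 13.4 RPM (12.3 to 14.6) in CxH, 15.1 RPM (13.8 to 16.4) in CxWT, 13.6 RPM (12.5 to 14.9) in MH and 12.6 RPM (11.3 to 13.9) in MWT. All neighbours in the order had overlapping intervals, and the highest library was 1.20-fold above the lowest. Of its ratios only MWT over CxWT, -0.26 ± 0.099, had a 95% interval that left out 0.

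Cyp51, the cytochrome P450 that removes a methyl group from lanosterol, was the one gene whose 4 libraries all stood apart in their intervals. It lies on chromosome 5 at 4081145 to 4104746, minus strand. Its level was 46.0 RPM (43.9 to 48.2) in CxH, 56.5 RPM (54.0 to 59.1) in CxWT, 51.4 RPM (49.1 to 53.8) in MH and 67.1 RPM (64.2 to 70.2) in MWT. Both libraries labelled Ids-ko were below the wt library with the same area label, although the area markers differed widely within both pairs. The log2 ratio was -0.30 ± 0.048 for CxH over CxWT and -0.38 ± 0.046 for MH over MWT. With the correction for GC content and length these were -0.14 and -0.20.

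Dhcr7, the reductase of the last step from 7-dehydrocholesterol to cholesterol, lies on chromosome 7 at 151009050 to 151034315, plus strand. It was read at 26.1 RPM (24.5 to 27.8) in CxH, 27.9 RPM (26.1 to 29.7) in CxWT, 22.7 RPM (21.2 to 24.2) in MH and 24.0 RPM (22.2 to 25.8) in MWT. The intervals of all neighbours in the order overlapped. The ratios between libraries labelled Ids-ko and wt, which also differed widely in area markers, were within counting error. They were -0.10 ± 0.065 for CxH over CxWT and -0.08 ± 0.074 for MH over MWT. Between libraries labelled Cx and M, with close area markers in each pair, the ratios were 0.20 ± 0.067 for CxH over MH and -0.22 ± 0.072 for MWT over CxWT.

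**Figure D1:**
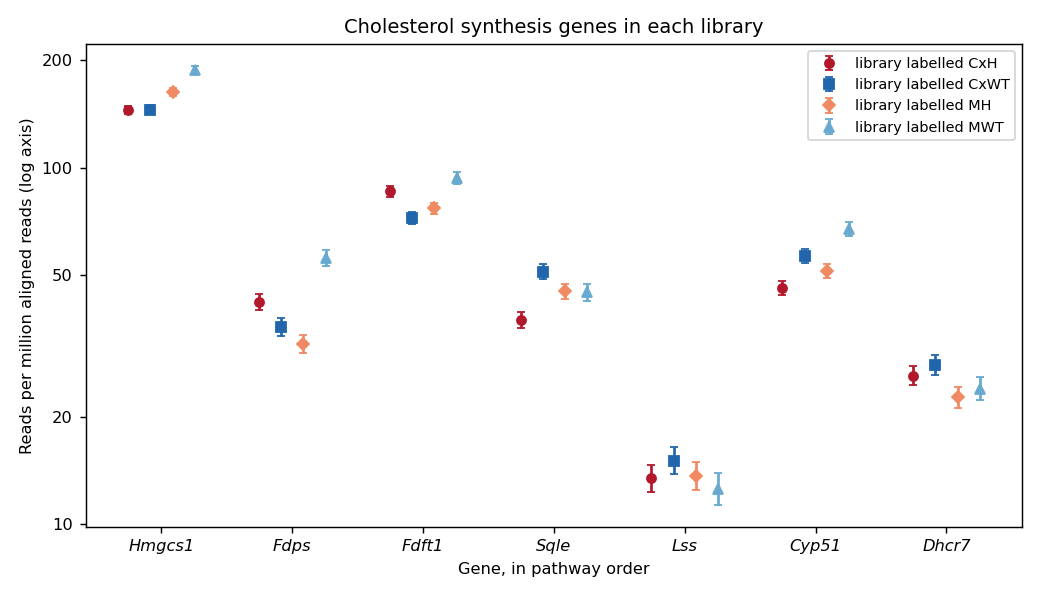
Level of each of the 7 genes in each library, in RPM on a log axis, with exact Poisson 95% intervals as bars that cover counting error only. Fdps spreads most, from 32.0 RPM in MH to 55.8 RPM in MWT, while the intervals of neighbouring libraries overlap for Lss and Dhcr7.

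Per kilobase of transcript the order of the genes was different from that of the reads. Fdps at 25.9 to 45.3 and Fdft1 at 25.3 to 32.7 RPM per kb of the longest protein-coding transcript were the highest of the 6 genes with a length, Sqle at 13.5 to 18.5 and Cyp51 at 11.7 to 17.1 were next, and Dhcr7 at 8.05 to 9.91 and Lss at 2.69 to 3.23 were lowest. Within each library Sqle, Cyp51, Dhcr7 and Lss thus lay below both Fdps and Fdft1. Hmgcs1 had no length in the annotation.

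Among the 7 genes the only call was that of Fdps in MH over MWT. In CxH over CxWT 0 of 7 passed the thresholds, where 20.9% of all 12700 genes did (9.46% higher and 11.5% lower). In MH over MWT 1 of 7 passed, Fdps lower, against 25.0% of all genes (12.3% higher and 12.7% lower). Between libraries labelled Cx and M, 0 of 7 passed in CxH over MH, against 3.5% (2.43% higher and 1.06% lower). In MWT over CxWT 0 of 7 passed, against 7.54% (2.11% higher and 5.43% lower). Area markers were close within each of these latter pairs and far apart within CxH over CxWT and MH over MWT. With 7 genes these counts are a description, and no list was tested.

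The median log2 ratio of the 7 genes was -0.10 in CxH over CxWT, -0.21 in MH over MWT, -0.02 in CxH over MH and 0.25 in MWT over CxWT. The medians over all genes were -0.09, -0.07, 0.01 and -0.04. The median of 0.25 is the ratio of Cyp51, the lowest of the 4 genes above 0, and over the 6 genes other than Hmgcs1, which have a transcript in the annotation, it was 0.028. In size, the median ratio of the 7 genes was 0.23, 0.21, 0.17 and 0.26, beside 0.34, 0.40, 0.20 and 0.24 over all genes. The ratios of 6, 6, 5 and 3 of the 7 genes lay between the quartiles of all genes in the 4 pairs. By counting error alone, 4, 4, 6 and 7 of the 7 had a 95% interval that left out 0. Summed, the 7 genes took 396 RPM in CxH, 404 RPM in CxWT, 404 RPM in MH and 486 RPM in MWT, so that only MWT stood off from the others. Hmgcs1, Fdps, Fdft1 and Cyp51 were highest in MWT, and Sqle, Lss and Dhcr7 in CxWT.

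The other 13 enzymes of the pathway were also all read, and 0 of 13 were called in any of the 4 pairs, in which 20.9%, 25.0%, 3.5% and 7.54% of all genes were. Their medians were -0.01, -0.10, 0.17 and -0.14 in the same order of pairs, and their summed level was 489.6 to 517 RPM. Acat2, which joins acetyl-CoA units, had a log2 ratio of -0.08 for CxH over CxWT and -0.44 for MH over MWT. Among the genes of the mevalonate steps before Fdps, Mvd, the decarboxylase that yields isopentenyl diphosphate, was at 0.20 and 0.51, Mvk, mevalonate kinase, at 0.39 and 0.16, and Pmvk, the next kinase, at 0.30 and -0.10 in the same pairs. With the GC and length correction Mvd was at -0.10 and 0.15.

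Of the genes after lanosterol, Msmo1, a sterol methyl oxidase, was at -0.48 ± 0.036 for CxH over CxWT, close to Sqle, and at -0.08 ± 0.036 for MH over MWT. Nsdhl, which removes the carboxyl group left by that oxidase, was at -0.09 and -0.56, and Hsd17b7, the ketone reductase acting with it, at -0.32 and 0.44. Lbr and Tm7sf2, which both encode C14 sterol reductases, were at 0.06 and -0.01 for CxH over CxWT and at -0.56 and -0.11 for MH over MWT. Ebp, an isomerase, was at -0.02 and -0.17, and Sc5d, a desaturase, at -0.36 and -0.35. With the correction Sc5d was at -0.07 and 0.10, so that its sign in MH over MWT turned.

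Between libraries labelled Cx and M, the 13 genes ran from Hsd17b7, -0.56, to Ebp, 0.48, in CxH over MH. In MWT over CxWT they ran from Mvd, -0.53, to Nsdhl, 0.55. Fdps, at 0.64, lay above all 13 in the latter pair. Fdft1 and Hmgcs1, both at 0.37, lay below Nsdhl and Lbr, 0.39.

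**Figure D2:**
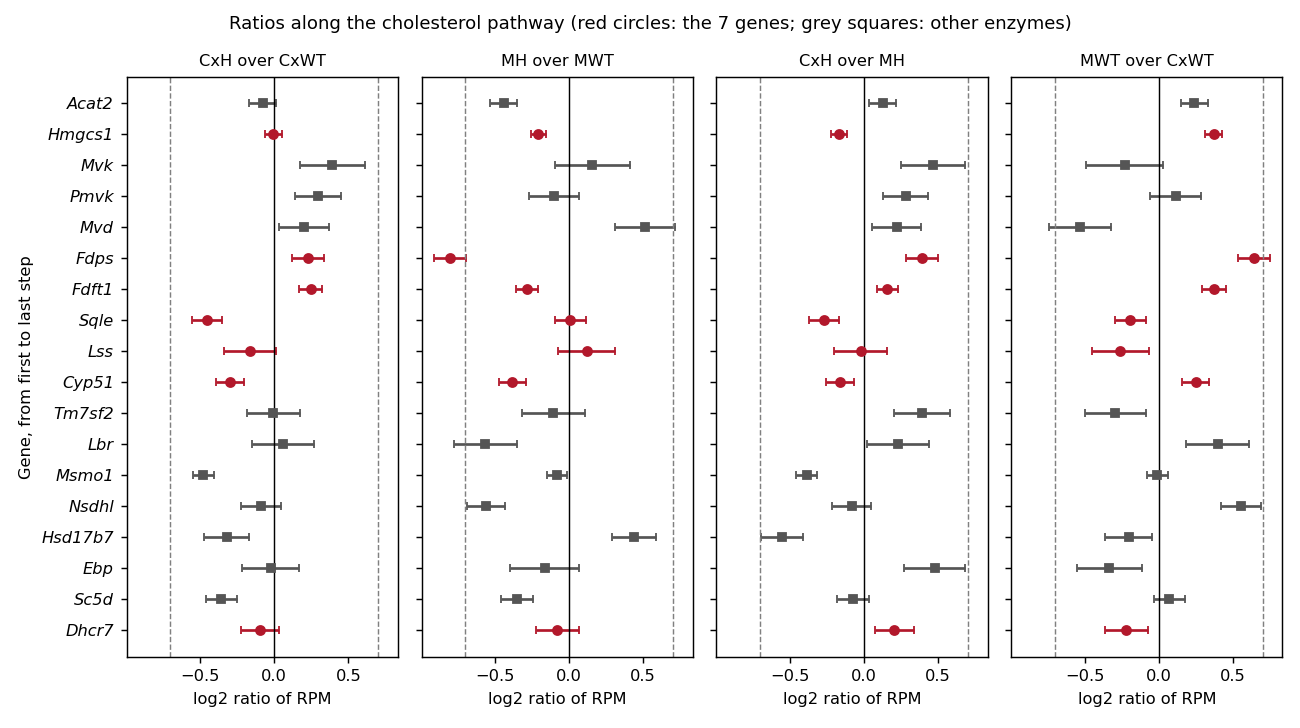
Log2 ratio of RPM for the 7 genes (red circles) and 11 of the 13 other enzymes (grey squares) in pathway order, 1 panel per pair of libraries, with 95% intervals of counting error and dashed lines at the threshold of 0.7 in size. Only Fdps in MH over MWT lies beyond a dashed line, at -0.80.

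Of the regulators of the pathway, Srebf2, Scap and Insig1 were called in the M pair, in which Ids was higher in the library labelled Ids-ko. Srebf2 was read at 232 RPM in CxH and 179 RPM in CxWT, and at 207 RPM in MH and 109.8 RPM in MWT, lowest in MWT, the library where the 7 genes together were highest. It was up-regulated in MH over MWT, with a log2 ratio of 0.92 ± 0.030, and down-regulated in MWT over CxWT, at -0.71 ± 0.032. Scap, which escorts its product, was read at 94.7, 83.4, 79.9 and 48.6 RPM, and was likewise called higher in MH over MWT, at 0.72 ± 0.047, and lower in MWT over CxWT, at -0.78 ± 0.047. After the GC and length correction neither gene passed in either pair, with Srebf2 at 0.39 and -0.32 and Scap at 0.12 and -0.32. With column totals Scap did not pass in either pair, at 0.66 and -0.69, and Srebf2 did not pass in MWT over CxWT, at -0.62. Srebf2 was also inside the threshold in MWT over CxWT with TMM and with DESeq2 size factors, at -0.66 in both. Under the assumed variation of 0.2 only the call of Srebf2 in MH over MWT held among these 4. Their transcripts had 57.5% and 59.2% GC.

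Insig1, which retains Scap in the endoplasmic reticulum and is itself a target of the pathway, was read at 56.8, 87.7, 55.9 and 100.6 RPM. It was down-regulated in MH over MWT, at -0.85 ± 0.041, and was at -0.63 ± 0.041 in CxH over CxWT, and the correction brought MH over MWT to -0.62, inside the threshold. Insig2, its homologue, was at -0.44 and -0.57 for CxH over CxWT and MH over MWT. Srebf1, the related factor of fatty acid genes, was at -0.38 and 0.05, and at -0.65 for MWT over CxWT. Over the 10 genes of sterol sensing, 0 were called in CxH over CxWT, 2 higher and 1 lower in MH over MWT, 0 in CxH over MH and 2 lower in MWT over CxWT. The share called over all genes in these pairs was 20.9%, 25.0%, 3.5% and 7.54%, and 3 of 10 in MH over MWT was near it.

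Among 11 further targets of these factors and genes of uptake, 1 was called higher and 2 lower in CxH over CxWT, and again 1 higher and 2 lower in MH over MWT, which is near the 20.9% and 25.0% of all genes called in these pairs. None were called in CxH over MH, against 3.5% of all genes, and 1 was lower in MWT over CxWT, against 5.43%. Their medians were -0.30, -0.47, 0.16 and 0.06 in the 4 pairs. The gene lower in MWT over CxWT was Fasn, fatty acid synthase, at -0.84 ± 0.029, which the correction moved to -0.37. The genes called lower in CxH over CxWT or MH over MWT were chosen for mention after their values were seen. Elovl6, a fatty acid elongase, was at -1.14 ± 0.047 and -0.76 ± 0.044 in these pairs. Stard4, a sterol carrier, was at -0.72 ± 0.069 in CxH over CxWT, and Scd1, a desaturase, at -0.86 ± 0.023 in MH over MWT. The correction ended the calls of Stard4, at -0.48, and of Elovl6 in MH over MWT, at -0.59. Stard4 was also inside the threshold with TMM, at -0.63, and with DESeq2 size factors, at -0.64, and Elovl6 in MH over MWT with the latter. Neither of these calls held under the assumed variation of 0.2.

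Of 15 genes of cholesterol transport, storage and breakdown, 2 were higher and 1 lower in CxH over CxWT, 2 higher and 3 lower in MH over MWT, 3 higher in CxH over MH and 1 higher in MWT over CxWT. Of all genes, 20.9% and 25.0% were called in the first pairs, near the shares here, and 2.43% and 2.11% were called higher in the others. Ch25h, which makes 25-hydroxycholesterol, was called in all 4 pairs but on few reads, with 90 in CxH and 14 in CxWT, and 22 in MH and 58 in MWT. Its ratios were 2.49 ± 0.41, -1.77 ± 0.36, 1.99 ± 0.34 and 2.27 ± 0.43. Npc2, which binds cholesterol in the lysosome, was read at 79.8, 68.8, 47.5 and 96.6 RPM and was lower in MH over MWT, at -1.03 ± 0.044, and higher in CxH over MH, at 0.75 ± 0.043, a call not held under the assumed variation of 0.2. Lcat, which esterifies cholesterol on lipoproteins, was higher in CxH over MH, at 0.89 ± 0.087, and inside the threshold, at 0.68, with the correction. Cyp46a1, the neuronal enzyme that starts the removal of brain cholesterol, was named after its values were seen, and it was higher in CxH over CxWT, at 1.06 ± 0.038, and in MH over MWT, at 0.82 ± 0.044, where the correction brought it to 0.46, inside the threshold.

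Fdps also feeds the branch to ubiquinone, dolichol and prenylated proteins, and of 9 genes of that branch 1 was lower in CxH over CxWT, 1 in MH over MWT and 1 in CxH over MH, where 11.5%, 12.7% and 1.06% of all genes were called lower. Pdss1, which makes the side chain of ubiquinone, was the gene of both the first and the last of these pairs, at -1.24 ± 0.19 and -0.71 ± 0.20, on 82 to 169 reads per library. The call in CxH over MH ended with the correction, at -0.65, and under the assumed variation of 0.2, while the correction moved MWT over CxWT from -0.59 to -0.91, past the threshold. The gene of MH over MWT was Fnta, the shared subunit of the prenyl transferases, at -1.09 ± 0.063, named after its value was seen. The medians of the branch were -0.09, -0.23, 0.17 and 0.04.

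Between the libraries the summed levels of oligodendrocyte and microglia markers spread more widely than the sum of the 7 genes. The summed level of 12 oligodendrocyte markers was 5095 RPM in CxH, 9679 RPM in CxWT, 5314 RPM in MH and 7839 RPM in MWT. Of these, 10 were lower in CxH over CxWT and 7 in MH over MWT, where 11.5% and 12.7% of all genes were lower. The medians were -0.93 and -0.74, and both pairs also differed widely in area markers. In CxH over MH and MWT over CxWT, with close area markers, 0 and 1 were lower, where 1.06% and 5.43% of all genes were. The medians there were -0.09 and 0.03. In bulk tissue fewer cells of a type and less RNA per cell cannot be told apart. The 12 microglia markers summed to 722, 353, 412 and 571 RPM, the 10 astrocyte markers to 3405, 2624, 2861 and 3211 RPM, the 8 endothelial markers to 211, 151, 164 and 185 RPM, and the 9 neuronal markers to 4135, 3867, 4052 and 3907 RPM. No marker of these 5 cell types was at 0 in any library. Their part in the levels of the 7 genes was not tested.

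**Figure D3:**
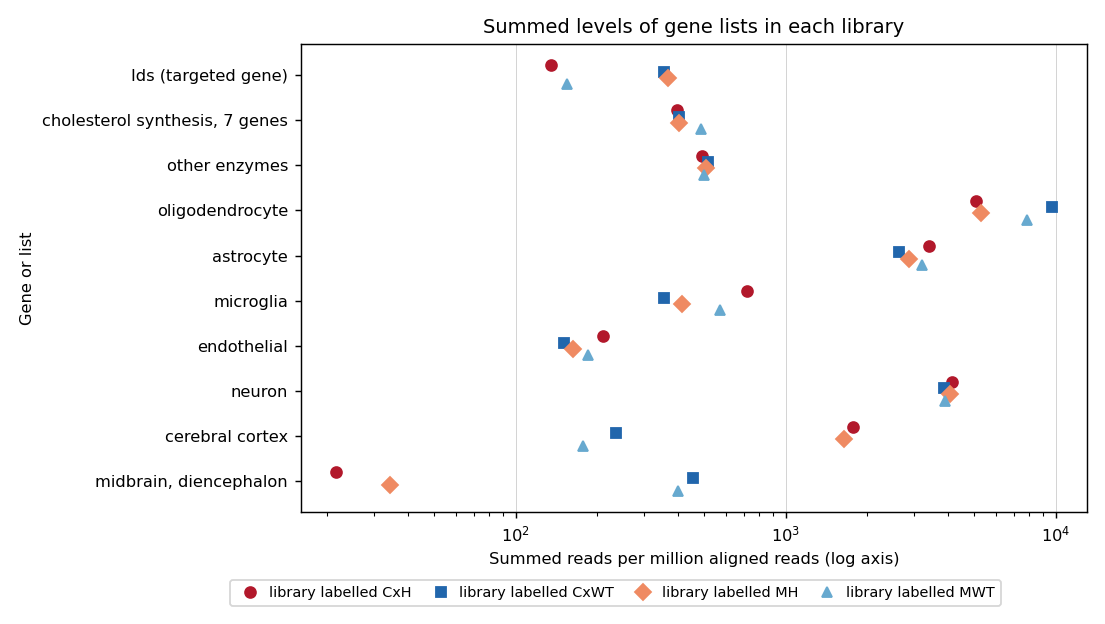
Summed RPM (log axis) of Ids, of the 7 cholesterol genes, of the 13 other enzymes and of each marker list, 1 symbol per library. The 7 genes lie between 396 and 486 RPM, while cortex markers separate CxH and MH from CxWT and MWT.

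The ratios also followed the base composition of the transcripts. Across the 10814 genes that had a transcript in the annotation and 100 or more reads in each of the libraries, Spearman's rho between the GC content of the transcript and the log2 ratio was 0.46 in CxH over CxWT, 0.49 in MH over MWT, 0.58 in CxH over MH and -0.63 in MWT over CxWT. Across the 19 enzymes of the pathway with a transcript in the annotation it was 0.64, 0.34, 0.69 and -0.52. Genes of a sample share a library and are not replicates, so these values are descriptions. The 6 cholesterol genes with a transcript had a narrow range of GC content, 46.2% in Cyp51 to 52.8% in Dhcr7. With the correction the ratio of MWT over CxWT moved from 0.64 to 0.50 for Fdps, from 0.37 to 0.30 for Fdft1, from 0.25 to 0.10 for Cyp51 and from -0.19 to -0.30 for Sqle, with no change of sign. The part of base composition in the differences between the libraries was otherwise not tested.

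**Figure D4:**
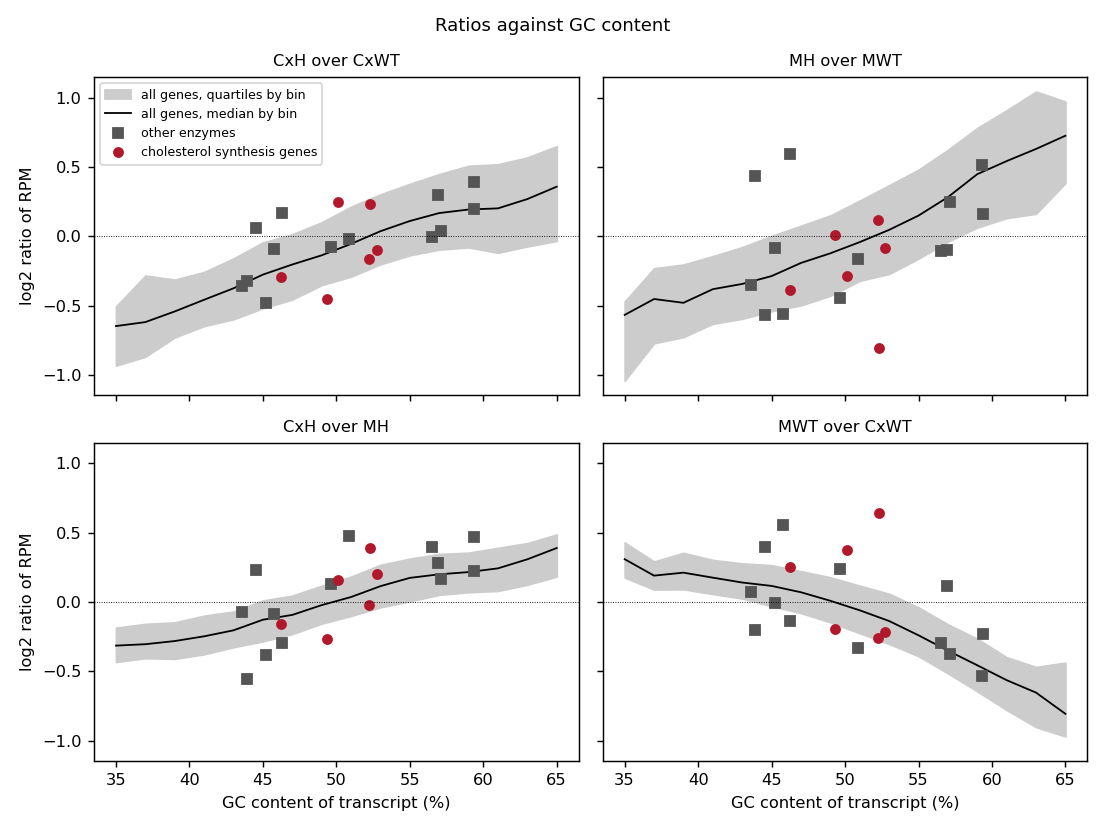
Log2 ratio of RPM against the GC content of the longest protein-coding transcript (%), 1 panel per pair of libraries, for 6 of the cholesterol genes (red circles) and the 13 other enzymes (grey squares), over the median (line) and quartiles (band) of all genes in bins of GC content. Fdps lies below the band in MH over MWT, at -0.80, and above it in MWT over CxWT, at 0.64.

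The 7 genes did not share a single profile. Each gene's log2 RPM was centred on its mean over the 4 libraries, and the median of the 7 genes was -0.02 in CxH and 0.05 in CxWT, and -0.09 in MH and 0.20 in MWT. By Euclidean distance over the 4 libraries, the genes nearest to this median among the 11010 with 100 or more reads in each library were Sfr1, Bfar, Cyb5d2, Atp2a2 and Aggf1, at 0.069 to 0.072. The 7 genes themselves lay at 0.24 (Fdft1) to 0.44 (Fdps), and from 13.1% to 45.2% of these 11010 genes were nearer than they were.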

How the data were processed

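RNA of each condition was sequenced on a SOLiD 3 Plus instrument. The authors aligned the reads to the mouse genome (NCBI37/mm9) with PASS, allowing at most 2 mismatches, and the deposited counts are whole reads per gene, kept by the authors where a read had a single gene and the gene was covered over more than 50% of its length. The annotation behind the counts is not given in the sources used here. The table is keyed by Entrez identifiers, and 12690 of 12700 were matched to symbols through the RefSeq gene table. Positions, transcript length and GC content were taken by symbol from GENCODE vM1, the same build, for 12354 genes. Promoter sequences were from RefSeq on GRCm38.p6 and were not set against those positions.

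Counts were scaled by the aligned reads that the study gives for each library. A count of 0 was set to 1 for a ratio. Each gene of the table was tested in 4 pairs of libraries with a Poisson likelihood ratio test, and was called where the p-value fell below 0.05 and the log2 ratio was 0.7 or more in either direction, the thresholds of the study. With 1 library per condition there is no spread between pools, so standard errors and exact Poisson 95% intervals cover counting error only. Pairs that share a library are not independent. The 8 genes, the other lists and the tests were chosen with earlier results of these data known.

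Genes named were the 8 members, the other pathway enzymes, Ids, Srebf2, Srebf1, Scap, Insig1 and Insig2, genes of the other pathway lists called in CxH over MH or MWT over CxWT, and the 5 genes of nearest profile. Outside this rule Elovl6, Stard4, Scd1, Cyp46a1 and Fnta were named after their values were seen. A few genes of these lists are not reported here, though all entered the counts, sums and medians. Alternatives were scaling by column totals, by TMM factors of edgeR or by DESeq2 size factors, 0.5 added to every count, a correction for GC content and length, at least 100 reads in every library, a log2 ratio of at least 1, Benjamini-Hochberg adjustment, and the exact test of edgeR for an assumed biological variation (coefficient 0.2). An additive edgeR quasi-likelihood fit of area and genotype was added after the data were seen. The Poisson test, the GC and length correction and the additive fit were run on simulated data with known changes. The simulation for the additive fit changed area alone, without interaction, so it does not test H over WT. The software was edgeR 4.0.16 and DESeq2 1.42.0 under R 4.3.3. The rest ran under Python 3.11.15 with scipy 1.17.1, and with pandas 2.3.3, numpy 2.4.6 and, for the plots, matplotlib 3.10.9.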

Additional observations from a re-analysis of the deposited data

Results flagged for a closer look

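Some genes had log2 ratios of opposite sign under the same contrast in the 2 areas or the 2 genotypes, each more than 3 counting SEs from 0, with 1 library per condition, and these differences were not tested. Between Ids-ko and wt, Fdps was at 0.23 in Cx and -0.80 in M, and Fdft1 at 0.25 in Cx and -0.28 in M. Between Cx and M, Fdps was at 0.39 in Ids-ko and -0.64 in wt, Fdft1 at 0.16 in Ids-ko and -0.37 in wt, and Sqle at -0.27 in Ids-ko and 0.19 in wt. Ids itself was at -1.39 in Cx and 1.24 in M between Ids-ko and wt, and at -1.44 in Ids-ko and 1.19 in wt between Cx and M. All of these signs follow the labels of the libraries, which Ids and the area markers go against.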

How the results depend on the processing

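Each condition had 1 library, so no replicate could be left out. Both areas of a genotype came from the same mice. An additive fit of area and genotype, which leaves 1 residual degree of freedom, was added after the data were seen. Genotype stood in for the shared mice, so the pairing served Cx over M only. For H over WT both areas of a pool stood as replicates, so variation between pools did not enter. By edgeR's quasi-likelihood test with Benjamini-Hochberg adjustment 0 of the 7 genes passed for Cx over M and 0 for H over WT, and 0 and 0 at an unadjusted p under 0.05. Over all 12700 genes 0 and 2369 passed, and 615 and 4323 at an unadjusted p under 0.05. No interaction was allowed for, although Ids had opposite signs in the areas. H over WT also set CxH and MH against CxWT and MWT, which differed widely in area markers. No result reversed among the values called. Fdps in MH over MWT was the one call among the 7 genes, and the members called lower in that pair were 0 with the GC and length correction, with a log2 ratio of at least 1, and with an assumed variation of 0.2. Scaling by column totals called 1 member higher in MWT over CxWT, Fdps at 0.73, and the GC and length correction called 1 other enzyme higher in MH over MWT. The median of the 7 genes in MH over MWT was -0.27 with column totals and -0.15 with either TMM or DESeq2 size factors. In MWT over CxWT it was 0.34 with column totals and -0.029 over the 6 corrected genes, which leave out Hmgcs1 and had a median of 0.028 before the correction. Below the threshold, Hmgcs1 in CxH over CxWT was at 0.09 with TMM and 0.08 with DESeq2 size factors, Sqle in MH over MWT at -0.05 with column totals, and Lss in MH over MWT at -0.06 with the correction. Over the whole table, a log2 ratio of at least 1 left 691 genes higher and 710 lower in CxH over CxWT, 869 and 773 in MH over MWT, 109 and 34 in CxH over MH, and 101 and 194 in MWT over CxWT, by the construction of the threshold. The correction gave 181 higher in CxH over MH, and 153 higher and 249 lower in MWT over CxWT. The filter of 100 reads left 141 higher and 60 lower in CxH over MH and 129 higher in MWT over CxWT, where fewer genes were tested. The assumed variation of 0.2 left 151 and 40 in CxH over MH and 128 and 359 in MWT over CxWT. The cause of the other changes was not tested. The 7 genes had 364 to 6086 reads each per library, and no spread between libraries of a condition could be measured.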
